A study of Rattus norvegicus with 8 samples.

Results

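Proteins of dendritic RNA granules carry, silence and release mRNAs in neurons, and the genes of 10 of them were chosen by name: *Cpeb1*, *Cpeb2*, *Cpeb3*, *Cpeb4*, *Fmr1*, *Fxr1*, *Fxr2*, *Stau1*, *Stau2* and *Pum2*. Of the 28909 gene symbols with counts, 9 of these 10 genes had a row, and *Stau2* was not analysed here. All 9 had more than 20 reads in at least 2 libraries, the filter that 14309 genes passed, and the lowest count of any of the 9 in any library was 55 reads.

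Hippocampal neurons of Sprague-Dawley rats were grown on porous membranes whose 2 sides were harvested apart. Libraries from the side with the cell bodies are called somata, and libraries from the side reached by dendrites and axons are called processes. RNA was extracted from each side and then depleted of ribosomal RNA. The comparison addresses how a chronic rise in network activity changes transcripts in somata and in processes. The 4 groups are somata control, somata PTX, processes control and processes PTX, with 2 libraries each. PTX is picrotoxin, a blocker of GABA-A receptors, given for 48 h from day 18 to day 20 in vitro, and control cultures received the ethanol vehicle per the study's methods. All groups share the strain, the culture on inserts and the library preparation.

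Library totals were 13012461 and 13751530 counts in somata control, 14520831 and 12290890 in somata PTX, 18455662 and 15120334 in processes control, and 16972388 and 17444265 in processes PTX. Genes of the mitochondrial genome took between 22.6% and 26.7% of the counts in somata and between 68.5% and 72.5% in processes. This left between 9517542 and 11227599 counts for other genes in each somata library and between 4702054 and 5491237 in each processes library. Counts of the 9 genes added up to 8187 to 9726 in a somata library but only 3412 to 4166 in a processes library.

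As background, an mRNA that travels into a dendrite is packed with RNA-binding proteins that keep it translationally silent until synaptic activity releases it. The CPEB proteins bind U-rich elements of untranslated regions and can shorten or lengthen the poly(A) tail, FMRP and its paralogs stall or slow translation, Staufen proteins bind double-stranded stretches and link mRNAs to transport or to decay, and Pumilio proteins recruit deadenylases. Several of these proteins take part in activity-dependent changes of synaptic strength.

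The question of whether 48 h of PTX changed the transcripts of these genes was asked first. None of the 9 passed an adjusted p of 0.05 in edgeR's quasi-likelihood test in somata, where 3.59% of all tested genes passed (2.09% higher and 1.5% lower). None passed in processes either, where 3.74% of all tested genes did (1.64% higher and 2.1% lower). At an unadjusted p under 0.05, 2 of the 9 passed in somata (*Cpeb4* and *Fxr2*), where 15.6% of all tested genes did, and 0 in processes, where 16.6% did. The likelihood ratio test of edgeR and DESeq2 also called 0 of the 9 in both compartments. The former called 6.79% of all genes in somata and 6.63% in processes. DESeq2 called 3.52% and 5.3% of the genes to which it gave an adjusted p. With the replicate number as a block, 1 of the 9 (*Cpeb4*) passed in somata, where 14% of all tested genes did, and 0 of the 9 in processes, where 11.2% did. At these shares, counts of 0 to 2 among 9 genes stand near the background. The log2 fold changes of the 9 lay between -0.28 and 0.26 in somata (median -0.0017, against -0.0063 over all tested genes) and between -0.27 and 0.34 in processes (median -0.00063, against -0.011). Over the 9 genes the 95% intervals reached at most from 0.695-fold to 1.54-fold in somata and from 0.581-fold to 1.78-fold in processes, and most genes had narrower ones. RNA was measured in bulk, so fewer cells of a type and less RNA per cell cannot be told apart for any value given here.

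**Figure D1:**
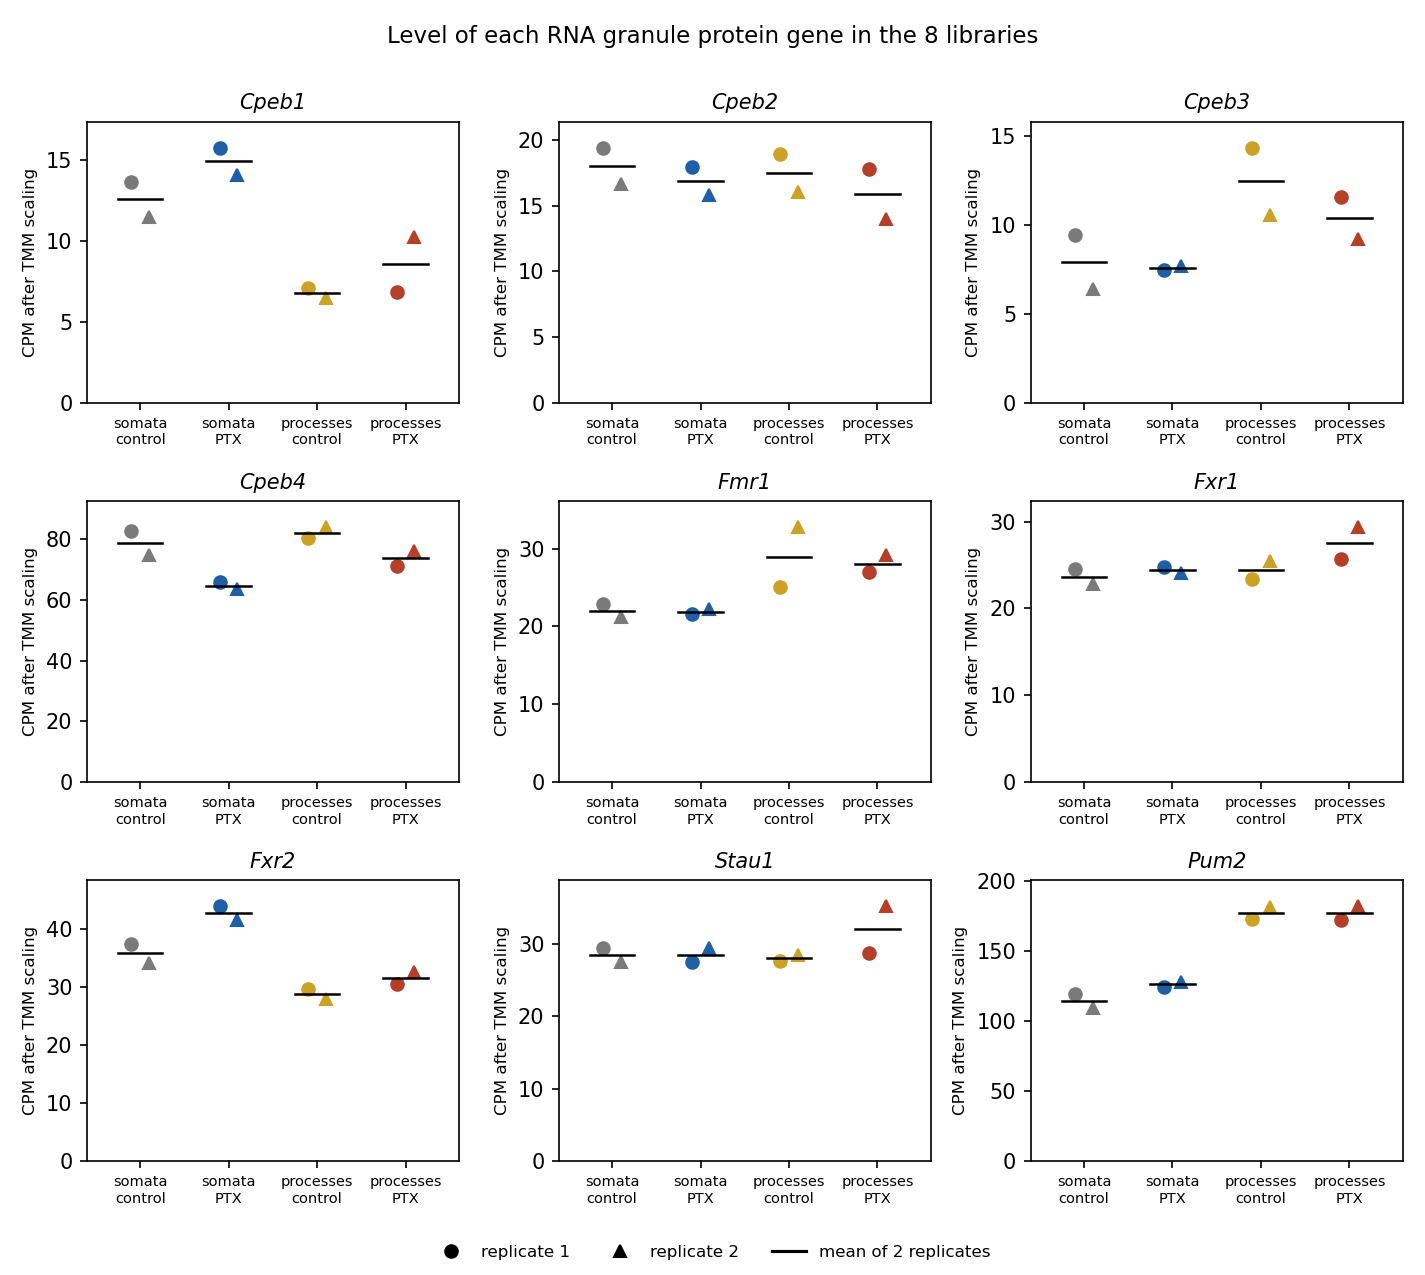
Level of each of the 9 genes in the 8 libraries, in CPM after TMM scaling on an axis that starts at 0. Circles and triangles are replicates 1 and 2, bars their mean; *Cpeb4* is lower in both PTX libraries of somata (63.5 and 66.0 CPM) than in both controls (74.8 and 82.6 CPM), and *Pum2* is higher in all 4 processes libraries than in all 4 somata libraries.

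Among the CPEB genes, *Cpeb4* encodes a member of the CPEB2-like subgroup that controls translation through poly(A) tails. Its level was 82.6 and 74.8 CPM (counts per 1000000 after TMM scaling) in the somata control libraries and 66.0 and 63.5 CPM in the somata PTX libraries. In processes it was 80.3 and 84.2 CPM in control and 71.1 and 76.3 CPM in PTX. In both compartments both PTX libraries lay below both control libraries. The change with PTX in somata was -0.28 on the log2 scale (standard error 0.10, 95% interval -0.51 to -0.05), with an edgeR adjusted p of 0.197 that did not pass. With the replicates paired through the block, the log2 fold change was again -0.28 and the adjusted p 0.0359, which passed. In processes the log2 fold change was -0.16 (standard error 0.11, edgeR adjusted p = 0.519).

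*Cpeb1* encodes the founding member of the family, which binds the cytoplasmic polyadenylation element. It had 13.7 and 11.5 CPM in somata control and 15.8 and 14.1 CPM in somata PTX. In processes it had 7.13 and 6.45 CPM in control and 6.88 and 10.2 CPM in PTX, from only 55 to 102 reads per library. The PTX libraries were above the controls in somata and overlapped them in processes. Its log2 fold change with PTX was 0.25 in somata (standard error 0.17, edgeR adjusted p = 0.572) and 0.34 in processes (standard error 0.22, edgeR adjusted p = 0.497). The value in somata was 0.12 without somata control replicate 2 and 0.37 without somata control replicate 1. Leaving out 1 processes PTX library moved the value in processes to 0.02 (without replicate 2) or 0.59 (without replicate 1), so the 2 PTX libraries there gave different answers for this gene.

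*Cpeb2* and *Cpeb3*, whose proteins repress translation in neurons under basal conditions, overlapped between PTX and control libraries in each compartment. *Cpeb2* lay between 15.8 and 19.4 CPM in the 4 somata libraries and between 14.0 and 18.9 CPM in the 4 processes libraries. *Cpeb3* lay between 6.38 and 9.47 CPM in somata and between 9.24 and 14.4 CPM in processes. Their log2 fold changes with PTX were -0.09 and -0.06 in somata and -0.15 and -0.27 in processes. With 1 library left out, the value of *Cpeb3* in processes lay between -0.47 (without processes control replicate 2) and -0.025 (without processes control replicate 1).

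In the FMRP family, *Fxr2* encodes an autosomal paralog of FMRP that shares its RNA-binding domains. Its level was 37.5 and 34.2 CPM in somata control and 44.1 and 41.6 CPM in somata PTX. In processes it was 29.7 and 28.0 CPM in control and 30.6 and 32.6 CPM in PTX. Both PTX libraries were above both control libraries in each compartment. With PTX its log2 fold change was 0.26 in somata (standard error 0.11, edgeR adjusted p = 0.26) and 0.13 in processes (standard error 0.12, edgeR adjusted p = 0.648), and neither passed. With the block the adjusted p in somata was 0.0621.

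*Fmr1* encodes FMRP, the translational repressor that is lost in fragile X syndrome. It had 22.8 and 21.2 CPM in somata control, 21.6 and 22.2 CPM in somata PTX, 25.1 and 32.8 CPM in processes control and 26.9 and 29.2 CPM in processes PTX. PTX and control libraries overlapped in both compartments. On the log2 scale the change was -0.0059 in somata (95% interval -0.30 to 0.29) and -0.04 in processes (95% interval -0.36 to 0.28). *Fxr1*, the other paralog, lay between 22.8 and 24.7 CPM in the 4 somata libraries and between 23.4 and 29.4 CPM in processes, and its 2 PTX estimates were 0.04 and 0.18 on the log2 scale.

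*Stau1* encodes a double-stranded RNA-binding protein that moves mRNAs along microtubules and triggers decay through Upf1. It lay between 27.5 and 29.4 CPM in the 4 somata libraries. In processes it had 27.6 and 28.5 CPM in control and 28.8 and 35.2 CPM in PTX, the last being its highest value. The log2 fold change was -0.0017 in somata (95% interval -0.27 to 0.26) and 0.19 in processes (95% interval -0.10 to 0.48), and neither passed. The value in processes was 0.036 without PTX replicate 2 and 0.33 without PTX replicate 1.

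*Pum2* encodes Pumilio 2, a repressor that limits dendrite growth and the translation of sodium channel mRNAs. Its level was 119 and 109 CPM in somata control and 124 and 128 CPM in somata PTX. In processes it was 173 and 181 CPM in control and 172 and 182 CPM in PTX. The PTX libraries were a little above the controls in somata and overlapped them in processes. *Pum2* had a log2 fold change of 0.14 in somata (95% interval -0.09 to 0.37, edgeR adjusted p = 0.608) and -0.00063 in processes (95% interval -0.23 to 0.23, edgeR adjusted p = 0.999). The value in somata was 0.072 without somata control replicate 2 and 0.20 without somata control replicate 1.

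*Pum2* mRNA is known as a target of miR-134 in rat hippocampal neurons, and the sequence of this miRNA is shown because it is the described link between neuronal activity and *Pum2*. The mature strand is given 5′ to 3′ from RefSeq (GRCr8), with the seed, bases 2 to 8, in capitals.
rno-miR-134-5p: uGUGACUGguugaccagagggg
The row of the hairpin gene *Mir134* held 8 and 9 reads in somata control, 14 and 11 in somata PTX, 2 and 0 in processes control and 1 and 1 in processes PTX. These are reads of long RNA libraries, too few for a comparison, and the level of the mature miRNA was not measured. *Mir134* was named after its values were seen.

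Whether PTX acted differently in the 2 compartments was tested as an interaction, that is, as the change with PTX in processes less the change in somata. None of the 9 genes passed, and neither did any of all tested genes (0%) in edgeR's quasi-likelihood test, with 572 genes (4%) and 0 of the 9 at an unadjusted p under 0.05. The likelihood ratio test and DESeq2 each called 4 genes and 0 of the 9, and the block called 0.105% of all genes and 0 of the 9. The interaction estimates lay between -0.21 (*Cpeb3*) and 0.19 (*Stau1*) on the log2 scale, with standard errors from 0.15 to 0.31. That of *Stau1* was 0.038 without processes PTX replicate 2 and 0.33 without processes PTX replicate 1. The difference for *Cpeb4* between compartments was 0.12 (95% interval -0.20 to 0.45), so its values in somata and processes were not shown to differ.

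**Figure D2:**
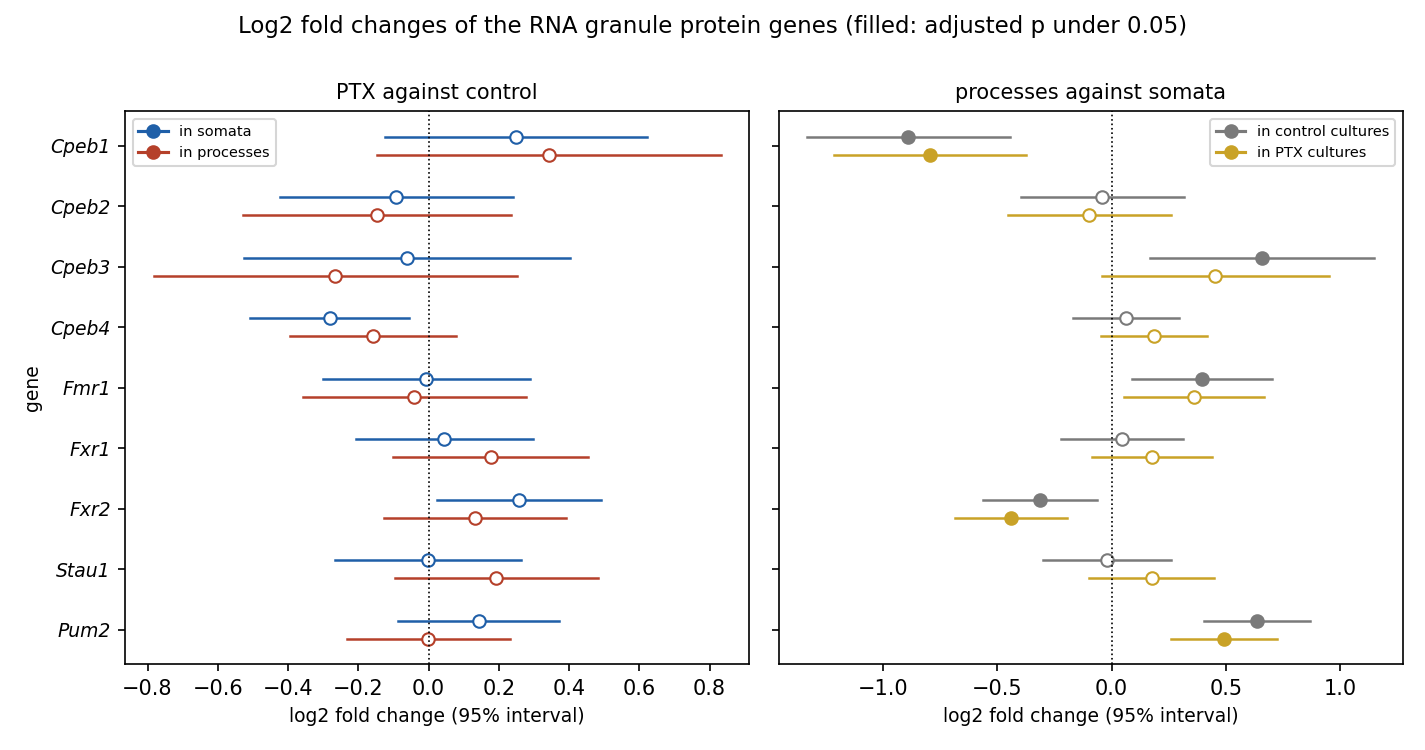
Log2 fold changes (x axis) of the 9 genes (y axis) with 95% intervals as lines, for PTX against control (left) and processes against somata (right). Filled points passed an adjusted p of 0.05 in edgeR's quasi-likelihood test after TMM scaling: 0 of 9 for PTX in each compartment, and for processes against somata 5 of 9 in control and 3 of 9 in PTX cultures. With library size alone all 9 lie below 0 on the right.

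The makeup of the cultures was checked against marker genes before the compartments were compared. All 10 neuron markers had reads in every library, and their summed level was 1961 to 2301 CPM in somata and 4220 to 5660 CPM in processes, with *Map2* the most abundant in each library (811 to 984 CPM in somata and 3364 to 4687 CPM in processes). In control cultures 2 of the 10 were higher in processes and 7 lower (25.8% and 21.9% of all genes). In PTX cultures 2 were higher and 6 lower (25.7% and 24% of all genes). All 8 astrocyte markers also had reads in every library, and their sum was 3166 to 4476 CPM in somata and 11401 to 14917 CPM in processes. The most abundant was *Gfap*, an intermediate filament of astrocytes, with 1056 to 1778 CPM in somata and 7687 to 11096 CPM in processes. Both sides of the membranes thus held astrocyte transcripts. These sums depend on the scaling: per 1000000 total counts, without TMM, the astrocyte sums overlapped (6072 to 8321 in somata and 5858 to 7505 in processes), and the neuron sums were lower in processes (2409 to 2990) than in somata (3774 to 4294). Of the 8 astrocyte markers, 4 were higher and 2 lower in processes of control cultures (25.8% and 21.9% of all genes). In PTX cultures 5 were higher and 0 lower (25.7% and 24% of all genes). The 9 oligodendrocyte markers summed to 272 to 457 CPM in somata and 470 to 647 CPM in processes, led by *Olig1*. Per 1000000 total counts, without TMM, this order turned, with 521 to 849 in somata and 229 to 370 in processes. Microglia markers were close to 0, with sums of 0.586 to 1.90 CPM over the 5 with a row, of which *Csf1r* was the most abundant on average over the libraries but not in each one. Of these, *Cx3cr1* was at 0 in all 4 processes libraries and in 1 somata library. The 5 endothelial and fibroblast markers with a row summed to 14.4 to 44.0 CPM, led by *Col1a1*, and *Cldn5*, which marks endothelium, was at 0 in all 8 libraries. Some markers also moved with PTX in edgeR's quasi-likelihood test. In somata *Gad1* and *Gad2*, enzymes of GABA synthesis, were higher (0.82 and 0.92 on the log2 scale, adjusted p = 0.0247 and 0.0328), and the neuronal *Rbfox3* and the astrocyte gap junction gene *Gja1* lower (-0.67 and -0.61, adjusted p = 0.0221 and 0.0215). In processes *Gad2* and the glutamate transporter gene *Slc17a7* were higher (0.92 and 0.73, edgeR adjusted p = 0.0384 and 0.0172). Over the 10 neuron markers the median with PTX was -0.17 in somata and -0.23 in processes, and over the 8 astrocyte markers -0.19 and -0.11. With the block 3 neuron markers passed as higher and 4 as lower in somata, where 14% of all genes passed in either direction. In processes 4 passed as higher and 5 as lower with the block, where 11.2% of all genes passed. The 5 lower ones were *Rbfox3* (-0.53), *Tubb3* (-0.47), *Stmn2* (-0.44), *Syp* (-0.39) and *Map2* (-0.34). Of the astrocyte markers 2 were lower in somata with the block, and 1 was higher and 1 lower in processes. *Slc17a7* was lower in somata (-0.33, edgeR adjusted p = 0.249, and 0.0182 with the block), and its interaction was 1.07 (edgeR adjusted p = 0.758, and 0.000451 with the block). These markers were named after their values were seen. The part of these cell types in the compartment differences and in the PTX changes of other genes was not tested. The 4 nuclear RNA markers that had been listed were not analysed here.

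The comparison of processes with somata asks where each transcript was relatively more abundant. In control cultures 5 of the 9 genes passed in edgeR's quasi-likelihood test, against 47.7% of all tested genes. Of these, 3 were higher in processes (*Pum2*, *Cpeb3* and *Fmr1*; 25.8% of all genes) and 2 lower (*Cpeb1* and *Fxr2*; 21.9% of all genes). In PTX cultures 3 of the 9 passed, against 49.8% of all genes, with *Pum2* higher (25.7%) and *Cpeb1* and *Fxr2* lower (24%). With the replicates paired through the block, 5 of the 9 passed in each kind of culture, against 57.8% of all genes in control and 59.5% in PTX cultures. The shares among the 9 were near those of the background, so the counts are no result about the group, and the genes are described singly. The control and PTX comparisons use different libraries.

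All of these differences are relative to the other genes of the library. TMM scaling placed the median tested gene at -0.05 on the log2 scale in control cultures. Scaling by library size alone placed it at -1.86, and upper quartile scaling at -0.25. With library size alone all 9 genes were lower in processes in both kinds of culture, and so were 13268 of the 13461 genes called in control cultures, so that 1.43% of the calls were higher in processes, against 54.1% with TMM and 36.9% with upper quartile scaling. In PTX cultures these shares were 1.35%, 51.7% and 37.9%. Measured from the median tested gene, the control value of *Pum2* was 0.68, 0.69 and 0.68 with TMM, library size and upper quartile scaling, and that of *Cpeb1* was -0.84 with each. How much RNA each compartment held was not measured, so directions are given relative to the typical gene.

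*Pum2* was higher in processes relative to the typical gene in both kinds of culture. Its 4 somata libraries (109 to 128 CPM) did not overlap its 4 processes libraries (172 to 182 CPM). The log2 fold change was 0.63 in control cultures (standard error 0.10, edgeR adjusted p = 0.000625) and 0.49 in PTX cultures (standard error 0.10, edgeR adjusted p = 0.00282). It passed with each of the 8 libraries left out in turn, with values from 0.57 to 0.69 in control and from 0.45 to 0.53 in PTX cultures. It also passed with upper quartile scaling (0.43 and 0.31), while library size alone turned it to -1.17 and -1.33.

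*Cpeb1* showed the opposite pattern. Its 4 somata libraries (11.5 to 15.8 CPM) lay above its 4 processes libraries (6.45 to 10.2 CPM). The log2 fold change was -0.89 in control (standard error 0.20, edgeR adjusted p = 0.00424) and -0.79 in PTX cultures (standard error 0.19, edgeR adjusted p = 0.00546), and it stayed below 0 under each scaling. It passed with each library left out in turn (-1.02 to -0.76 and -1.12 to -0.55).

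*Cpeb3*, which encodes a CPEB protein that holds back the synthesis of AMPA receptor subunits, was higher in processes of control cultures relative to the typical gene. It had 9.47 and 6.38 CPM in somata control and 14.4 and 10.6 CPM in processes control, without overlap. The log2 fold change was 0.66 (standard error 0.22, edgeR adjusted p = 0.0309). It did not pass without somata control replicate 2 (0.39, adjusted p = 0.207) or without processes control replicate 1 (0.42, adjusted p = 0.251), nor with upper quartile scaling (0.45), and library size alone turned it to -1.16. In PTX cultures it was 0.45 (edgeR adjusted p = 0.117, and 0.0246 with the block). *Cpeb2* and *Cpeb4* overlapped between compartments in control cultures, with log2 fold changes of -0.04 and 0.06. In PTX cultures *Cpeb2* overlapped again (-0.10), while *Cpeb4* was higher in both processes libraries than in both somata libraries (0.19, edgeR adjusted p = 0.162) and did not pass.

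*Fmr1* and *Fxr2* differed in direction. *Fmr1* was at 21.2 to 22.8 CPM in the 4 somata libraries and at 25.1 to 32.8 CPM in the 4 processes libraries, with no overlap. Its log2 fold change was 0.39 in control cultures (standard error 0.14, edgeR adjusted p = 0.0371) and 0.36 in PTX cultures (standard error 0.14, edgeR adjusted p = 0.0506, and 0.0122 with the block). *Fxr2* was at 34.2 to 44.1 CPM in somata and at 28.0 to 32.6 CPM in processes, again with no overlap. Its log2 fold change was -0.31 in control (standard error 0.11, edgeR adjusted p = 0.0409) and -0.44 in PTX cultures (standard error 0.11, edgeR adjusted p = 0.00747).

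Both control calls of this pair were close to the threshold. Without 1 library, *Fmr1* passed only when processes control replicate 1 (0.58), processes PTX replicate 1 or processes PTX replicate 2 was the library left out, and it fell to 0.19 (adjusted p = 0.307) without processes control replicate 2. The other 4 libraries, all of somata, gave 0.33 to 0.45 with adjusted p from 0.0538 to 0.175. *Fxr2* passed only without processes PTX replicate 1 or 2, and the other 6 gave -0.39 to -0.25 with adjusted p from 0.059 to 0.21. In PTX cultures *Fxr2* did not pass without somata PTX replicate 1 (-0.39, adjusted p = 0.0603), and *Fmr1* passed without either processes control library (0.36, adjusted p = 0.0217 and 0.0229). DESeq2 called neither of them in control cultures (adjusted p = 0.065 and 0.126), and with upper quartile scaling *Fmr1* was at 0.19 in control cultures (adjusted p = 0.27, not passed) and at 0.18 in PTX cultures. Library size alone turned *Fmr1* to -1.40 and -1.46. *Fxr1* and *Stau1* had log2 fold changes of 0.04 and -0.02 in control and 0.18 each in PTX cultures, and none of these passed. With 1 library left out, the values in PTX cultures lay between 0.074 and 0.27 for *Fxr1* and between 0.020 and 0.31 for *Stau1*.

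The makeup of each family can be read without any scaling, as the share of a gene in the summed reads of its family in a library. Of the reads of the 4 CPEB genes, *Cpeb1* took 10.9% and 10.5% in somata control, 14.7% and 13.9% in somata PTX, 5.9% and 5.5% in processes control, and 6.41% and 9.33% in processes PTX. Its share was thus lower in every processes library than in every somata library. It was also higher in both somata PTX libraries than in both somata controls, while the share of *Cpeb4*, which held most of the family's reads, was lower (61.5% and 62.8% against 66.0% and 68.4%). The shares of a family add up to its whole, so they are not separate observations. *Cpeb3* went the other way, from 5.83% to 7.61% in the 4 somata libraries to 8.42% to 11.9% in the 4 processes libraries. *Cpeb4* took 61.5% to 68.4% in somata and 66.2% to 71.8% in processes, and *Cpeb2* 15.2% to 16.8% and 12.7% to 16.6%, with overlap for both. The ratio of *Cpeb3* to *Cpeb1* reads was 0.473 to 0.693 in somata and 0.902 to 2.02 in processes. Read shares also reflect transcript length, so they compare libraries and not the genes of a family.

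**Figure D3:**
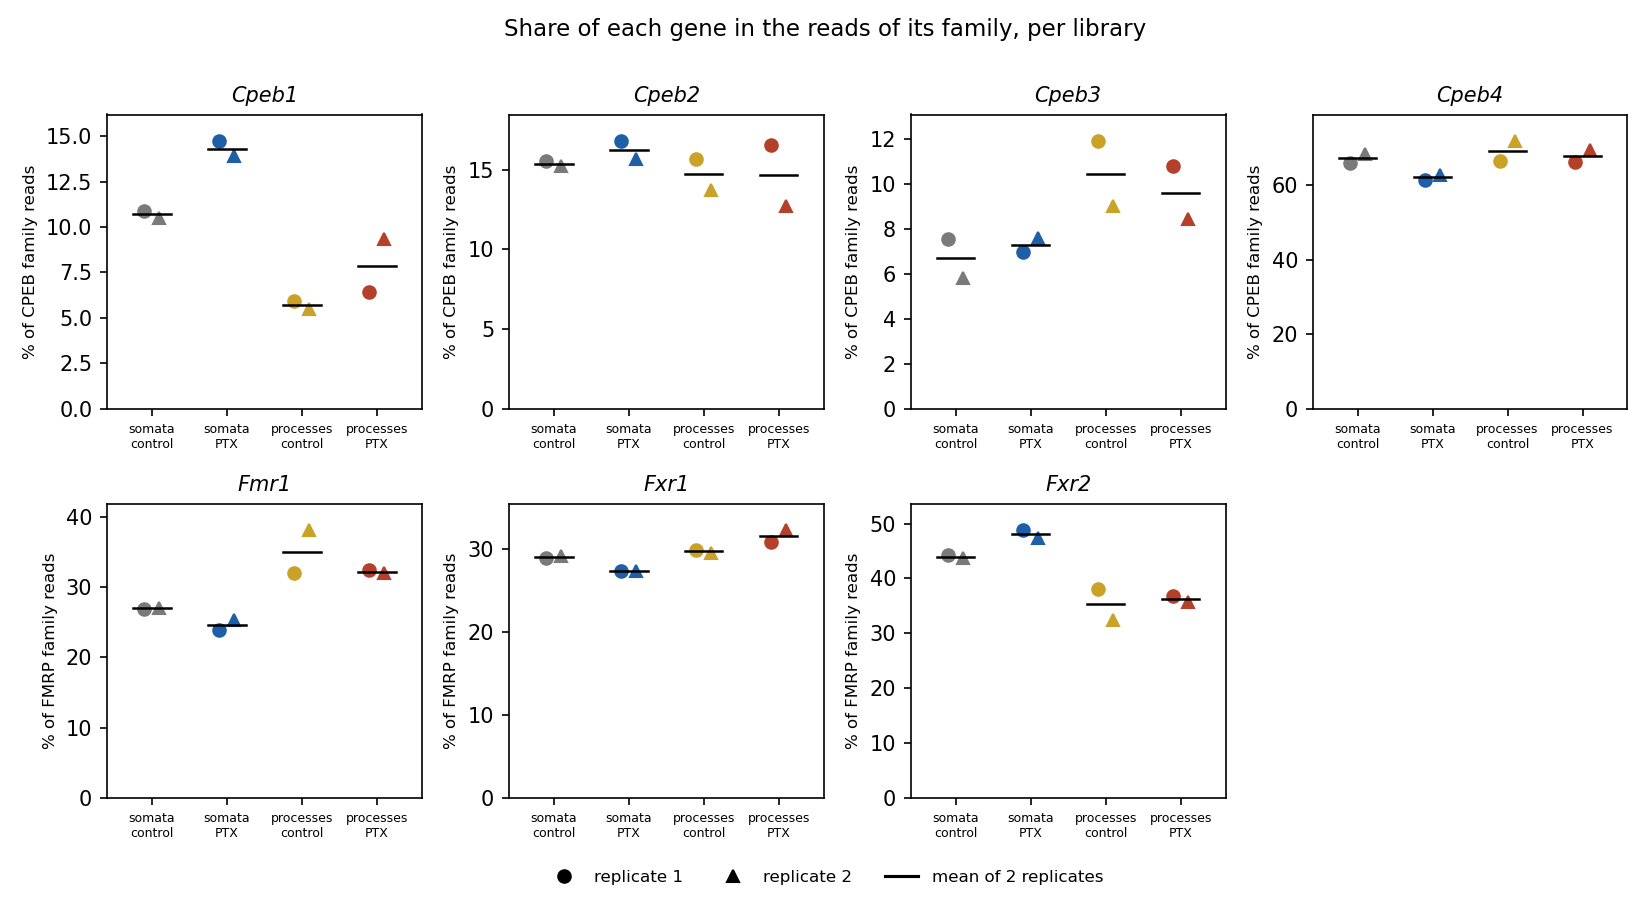
Share (%) of each CPEB gene in the reads of the 4 CPEB genes and of *Fmr1*, *Fxr1* and *Fxr2* in the reads of these 3, in each library, on axes that start at 0. Circles and triangles are replicates 1 and 2, bars their mean. The shares of *Cpeb1* and *Fxr2* are lower, and those of *Cpeb3*, *Fmr1* and *Fxr1* higher, in all 4 processes libraries than in all 4 somata libraries.

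In the FMRP family the share of *Fmr1* was 23.9% to 27.1% in somata and 32.0% to 38.0% in processes. That of *Fxr2* was 43.8% to 48.8% in somata and 32.5% to 38.0% in processes. *Fxr1* took 27.4% to 29.2% in somata and 29.5% to 32.2% in processes. These 3 shares are tied to each other in the same way, and the CPM of *Fxr1* overlapped between compartments in control cultures. In PTX cultures the CPM of *Fxr1* was higher in both processes libraries than in both somata libraries, without passing (edgeR adjusted p = 0.239). The ratio of *Fmr1* to *Fxr2* reads was 0.609 and 0.618 in somata control, 0.490 and 0.534 in somata PTX, 0.843 and 1.17 in processes control, and 0.880 and 0.895 in processes PTX. The ratio was lower in both somata PTX libraries than in both somata controls, and no test was made of shares or ratios.

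The partners of these proteins were followed through lists of genes with known roles. Of 13 tested partners of CPEB and FMRP, 0 passed for PTX in either compartment in edgeR's quasi-likelihood test, against 3.59% of all genes in somata and 3.74% in processes. At an unadjusted p under 0.05 there was 1 in each, against 15.6% and 16.6% of all genes, and there were 0 by the likelihood ratio test or DESeq2 at an adjusted p of 0.05. The median log2 fold change was -0.07 in somata and 0.05 in processes. *Cyfip1* and *Cyfip2* encode the proteins that tie FMRP to the cap-binding factor and to actin, and with the block both passed in somata (-0.32 and -0.29, adjusted p = 0.0135 and 0.0335) and *Cyfip2* also in processes (-0.42, adjusted p = 0.00332). These were 2 of the 13 in somata and 1 in processes, near the 14% and 11.2% of all genes that passed with the block. Both genes were named because they passed with the block, after their values were seen. Between compartments of control cultures, 1 of the 13 was higher and 4 lower in processes, against 25.8% and 21.9% of all tested genes, the background for each list in these cultures. With upper quartile scaling 5 were lower, against 19.2% of all genes higher and 32.9% lower, and with library size alone all 13, against 1.35% and 92.7%. The one that was higher was *Tdrd3*, a Tudor protein that binds FMRP (0.82, edgeR adjusted p = 0.000915), and the lowest was *Nufip1*, a nuclear FMRP-binding protein (-0.85, edgeR adjusted p = 0.000886). *Ngdn* (-0.63) and *Cpsf1* (-0.49) were also lower. In PTX cultures, where 25.7% of all genes were higher and 24% lower, 3 partners were higher, *Tdrd3* (0.90), *Caprin1* (0.58) and the deadenylase *Parn* (0.51), and 2 lower, *Nufip1* (-1.06) and *Ngdn* (-0.78), against 1 and 4 with upper quartile scaling (20.3% and 33.3% of all genes) and 0 and 13 with library size alone (1.27% and 93%). With the block 3 partners were higher and 4 lower in control cultures, and 3 were higher and 3 lower in PTX cultures. Of all genes 57.8% and 59.5% passed there, in either direction. The shares with upper quartile scaling, library size alone and the block are also the background of the lists that follow.

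Transport granule proteins include RNA-binding proteins and the kinesins that pull them. Of 22 tested, 10 were higher and 1 lower in processes of control cultures (25.8% and 21.9% of all genes), with a median of 0.32 against -0.05 over all genes. With upper quartile scaling 8 were higher and 4 lower (19.2% and 32.9% of all genes), and with library size alone 1 was higher and 17 lower (1.35% and 92.7%). The 3 kinesin heavy chains that move granules along microtubules were among the higher genes, led by *Kif5b*. Its level was 118 and 116 CPM in somata control and 539 and 611 CPM in processes control, a log2 fold change of 2.29 (standard error 0.13, edgeR adjusted p = 7.95e-07). *Ybx1*, a cold shock domain protein that packages mRNA, had 2.01 and *Kif5c* 1.76 (edgeR adjusted p = 2.23e-06 and 8.79e-06). The single lower gene in edgeR's quasi-likelihood test without the block was *Rtcb*, an RNA ligase (-0.75, edgeR adjusted p = 0.00103). In PTX cultures 10 were higher, led by *Kif5b* (2.64), *Ybx1* (2.13) and *Kif5a* (2.07), and 2 lower, *Rtcb* (-0.64) and *Sfpq* (-0.40), against 9 and 4 with upper quartile scaling and 2 and 17 with library size alone. With the block 12 were higher and 2 lower in control cultures, and 13 were higher and 3 lower in PTX cultures. For PTX, 0 of the 22 passed in either compartment (3.59% and 3.74% of all genes), with 0 at an unadjusted p under 0.05 in somata and 2 in processes (15.6% and 16.6% of all genes), and 0 by the likelihood ratio test or DESeq2. With the block *Kif5a* passed in somata (-0.55, adjusted p = 0.00276) and *Kif5b* in processes (0.35, adjusted p = 0.0173), both named after their values were seen. This was 1 of the 22 in each compartment, where 14% (somata) and 11.2% (processes) of all genes passed with the block.

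Staufen-mediated decay shares the helicase Upf1 with nonsense-mediated decay, and factors of both and of the exon junction were followed as 1 list. Of 13 tested, 0 passed for PTX in either compartment (3.59% and 3.74% of all genes), with 2 at an unadjusted p under 0.05 in somata and 1 in processes (15.6% and 16.6% of all genes), and 0 by the likelihood ratio test, DESeq2 or the block. Between compartments of control cultures 2 were higher and 2 lower in processes, against 25.8% and 21.9% of all genes (2 and 4 with upper quartile scaling, 0 and 12 with library size alone). *Upf2*, a bridge between the decay helicase and the exon junction, was the highest at 1.69 (edgeR adjusted p = 4.57e-06), followed by *Upf3a* at 1.03 (adjusted p = 0.0124). *Eif4a3*, the helicase of the exon junction, and *Smg1*, the kinase of the decay pathway, were lower at -0.66 and -0.58 (edgeR adjusted p = 0.00161 and 0.00113). In PTX cultures 2 were higher, *Upf2* (1.63) and *Upf3a* (0.92), and 5 lower, among them *Eif4a3* (-0.68) and *Upf3b* (-0.47), against 2 and 8 with upper quartile scaling and 0 and 12 with library size alone. With the block 2 were higher and 4 lower in control cultures, and 2 were higher and 6 lower in PTX cultures.

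Of 17 tested genes of P-bodies, stress granules and Pumilio partners, 0 passed for PTX in either compartment in edgeR's quasi-likelihood test, against 3.59% of all genes in somata and 3.74% in processes. At an unadjusted p under 0.05 there were 3 and 2, against 15.6% and 16.6% of all genes. The likelihood ratio test and DESeq2 each called 0 in somata and 1 in processes. There the former called 6.63% of all genes, and DESeq2 5.3% of those with an adjusted p. With the block *Edc4* and *Samd4b* passed in somata (0.27 and 0.43, adjusted p = 0.0399 and 0.00505) and *Samd4b* in processes (0.52, adjusted p = 0.00203), named after their values were seen. These were 2 of the 17 in somata and 1 in processes, where 14% and 11.2% of all genes passed with the block. In control cultures 5 were higher and 3 lower in processes, against 25.8% and 21.9% of all genes (4 and 6 with upper quartile scaling, 1 and 16 with library size alone). *Samd4a*, which encodes the Smaug repressor of synaptic silencing foci, was highest at 2.35 (edgeR adjusted p = 6.73e-07), and the P-body proteins *Lsm14a* (1.27) and *Ddx6* (0.78) were also higher. The stress granule proteins *Tia1* (-1.13, edgeR adjusted p = 0.000144) and *Tial1* (-0.83, edgeR adjusted p = 0.000297) were lower, as was *Edc4* (-0.41). In PTX cultures 6 were higher, led by *Samd4a* (2.22), *Lsm14a* (1.36) and *Ddx6* (0.78), and 5 lower, led by *Tia1* (-1.35), *Tial1* (-0.78) and *Edc4* (-0.51), against 5 and 7 with upper quartile scaling and 1 and 15 with library size alone. With the block 5 were higher and 4 lower in control cultures, and 7 were higher and 6 lower in PTX cultures. For the interaction 0 genes of these 4 protein lists passed in edgeR's quasi-likelihood test, the likelihood ratio test, DESeq2 or the block, with 1 partner of CPEB and FMRP and 2 decay factors at an unadjusted p under 0.05 (4% of all genes).

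Some of the cargo mRNAs described for CPEB, FMRP, Staufen, Pumilio or the RNA-binding protein ZBP1 changed with PTX. Of 16 tested, 2 rose, 2 fell and 12 did not pass in somata, where 3.59% of all genes passed. In processes 3 rose, 3 fell and 10 did not pass, where 3.74% of all genes passed. The likelihood ratio test called 7 of the 16 in each compartment (6.79% of all genes in somata and 6.63% in processes). DESeq2 called 8 in somata and 7 in processes (3.52% and 5.3% of the genes with an adjusted p). At an unadjusted p under 0.05 in edgeR's quasi-likelihood test there were 10 in each, against 15.6% and 16.6% of all genes. The list was chosen with earlier results of these data known, so its counts beside the background are no test of the list. *Bdnf*, a growth factor mRNA with dendritic forms, had 52.0 and 33.3 CPM in somata control and 180 and 173 CPM in somata PTX. In processes it had 12.8 and 12.5 CPM in control and 49.7 and 44.7 CPM in PTX. *Bdnf* rose by 2.05 on the log2 scale in somata and by 1.89 in processes (standard errors 0.17 and 0.20, edgeR adjusted p = 0.000216 and 0.00219). *Rgs4*, a regulator of G protein signalling bound by Staufen 2, rose by 1.24 and 1.03 (edgeR adjusted p = 0.000588 and 0.00392).

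*Camk2a*, the kinase mRNA that carries CPEB elements, had 118 and 111 CPM in somata control and 50.2 and 55.2 CPM in somata PTX, against 771 and 571 CPM in processes control and 234 and 258 CPM in processes PTX. No PTX library overlapped a control library of its compartment. The log2 fold change was -1.13 in somata and -1.45 in processes (standard errors 0.15 and 0.15, edgeR adjusted p = 0.00305 and 0.00165). *Gria1*, an AMPA receptor subunit, fell in somata (-0.53, edgeR adjusted p = 0.0301), *Plat*, the tissue plasminogen activator and a CPEB target, rose in processes (0.92, edgeR adjusted p = 0.0379), and *Shank1* and the sodium channel *Scn8a*, a Pumilio target, fell there (-1.12 and -0.59, edgeR adjusted p = 0.0135 and 0.0309). For the interaction 0 of the 16 passed in edgeR's quasi-likelihood test, with 0 at an unadjusted p under 0.05 and 0 by the likelihood ratio test, DESeq2 or the block, so none was shown to differ between compartments. With the block 10 of the 16 passed for PTX in each compartment, against 14% of all genes in somata and 11.2% in processes. With library size alone, 71.3% of all genes called for PTX in somata were higher, against 58.3% with TMM.

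Between compartments 6 of the 16 were higher and 8 lower in processes in each kind of culture, against 25.8% and 21.9% of all genes in control and 25.7% and 24% in PTX cultures. This held with TMM and with upper quartile scaling, while library size alone gave 3 and 12. With the block 7 were higher and 8 lower in each kind of culture, where 57.8% (control) and 59.5% (PTX) of all genes passed. In control cultures the higher ones were *Shank1* (3.31), *Camk2a* (2.55), *Map2* (2.30), *Dlg4* (1.78), *Arc* (1.12) and *Calm3* (1.02), mRNAs of postsynaptic, cytoskeletal and signalling proteins. The lower ones reached from *Bdnf* (-1.75) over *Grin2a* (-1.25), *Gria2* (-1.16), *Plat* (-1.11) and *Rgs4* (-1.01) to *Gria1* (-0.71), *Scn8a* (-0.68) and *App* (-0.68). *Map1b* and *Actb* did not pass without the block (0.27 and -0.04).

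**Figure D4:**
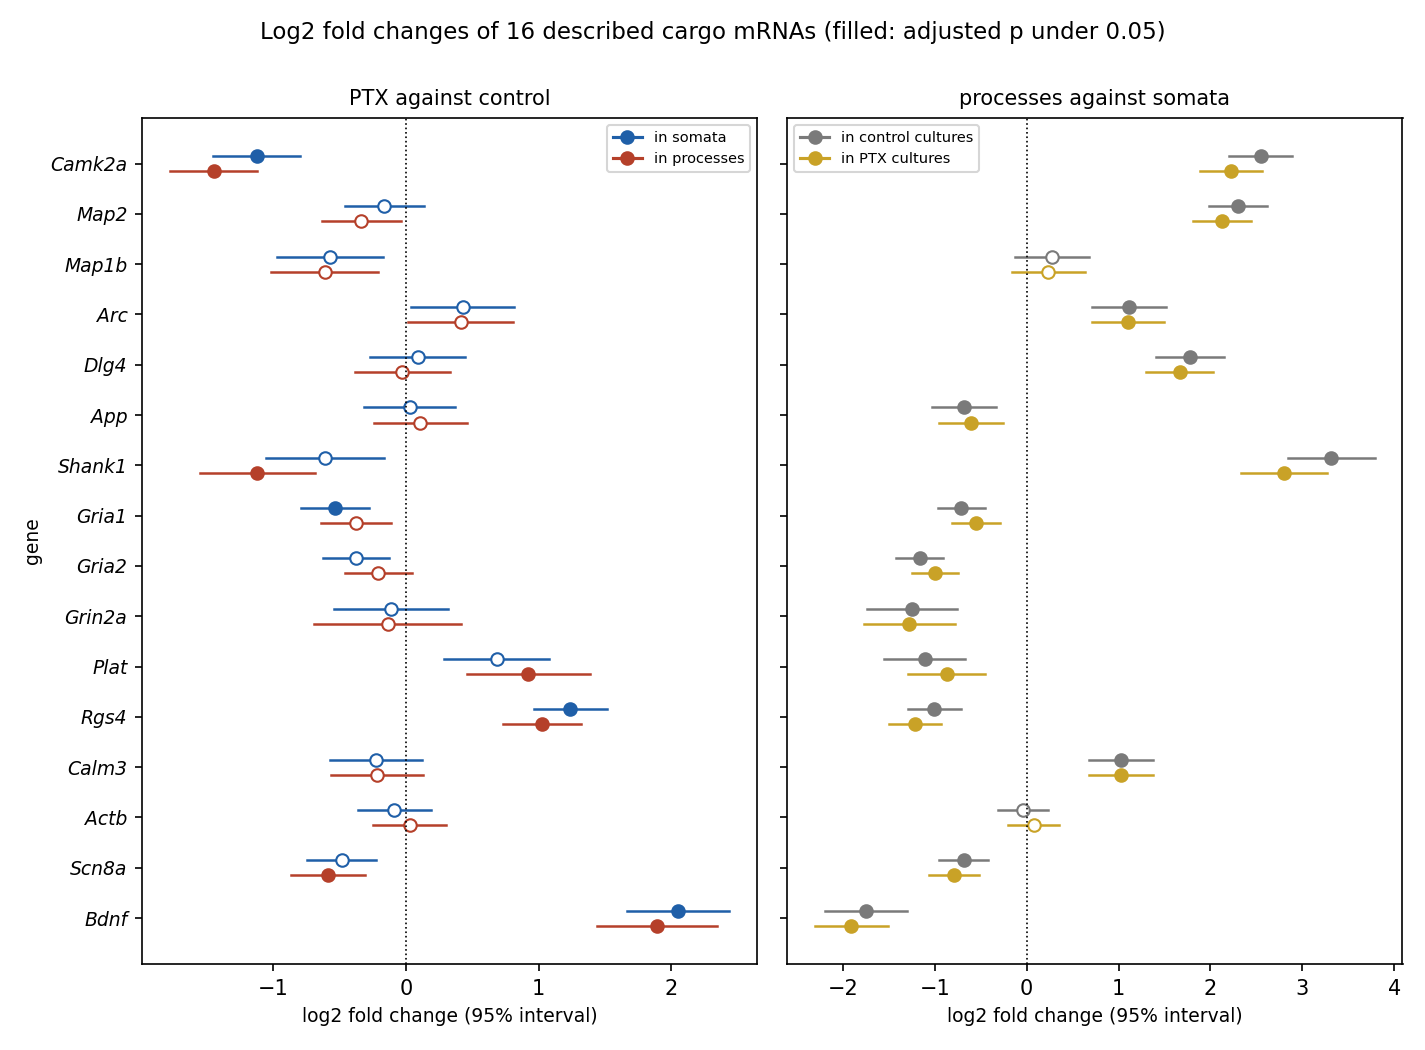
Log2 fold changes (x axis) of the 16 cargo mRNAs (y axis) with 95% intervals as lines, for PTX against control (left) and processes against somata (right, after TMM scaling; with library size alone 3 are called higher and 12 lower in control cultures). Filled points passed an adjusted p of 0.05 in edgeR's quasi-likelihood test: 4 in somata and 6 in processes for PTX.

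The promoters of the 9 genes were described from RefSeq windows of 300 bases around the start of each gene (GRCr8). Over all 33469 windows the median number of CG dinucleotides was 7. *Cpeb1*, *Cpeb3*, *Fmr1*, *Fxr1*, *Fxr2*, *Stau1* and *Pum2* had between 30 and 43, more than 89.7% to 97.9% of all windows. *Cpeb4* had 2, and the 2 windows of *Cpeb2* had 0 and 23. In the RefSeq gene table *Cpeb1* overlaps a pseudogene and 2 long non-coding RNAs, *Cpeb3* overlaps *Marchf5* and 1 other gene, and *Fxr1* overlaps *Dnajc19*. The overlaps are of whole gene spans in GRCr8, while the reads were counted on Rnor 6.0. The strand used in counting was not given in the sources used here. Whether reads of overlapping partners entered the counts of these 3 genes was not tested.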

How the data were processed

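Total RNA of 8 libraries was sequenced after ribosomal depletion. The authors trimmed and aligned the reads to the rat genome (Rnor 6.0), counted them on genes with featureCounts and summed them by gene symbol, and the deposited values are whole-number counts without normalization. The submitters' notes name STAR as the aligner and the study's methods Subread. The deposited tables of the authors' own PTX comparisons (fold changes and p-values) were not used. A gene was tested if 2 or more libraries held over 20 of its reads. TMM factors, levels in CPM and the quasi-likelihood test came from edgeR 4.0.16 in R 4.3.3, with 1 coefficient per group over all 8 libraries, and p-values were adjusted by Benjamini-Hochberg over all 14309 genes with a threshold of 0.05. Tests were two-sided. A standard error is the log2 fold change divided by the root of the F statistic. Only the quasi-likelihood fit was tested on simulated data, for PTX in each compartment and for processes against somata in control cultures. The study's methods count independent experiments, but the labels do not say whether the 2 libraries of a group came from separate cultures, so p-values measure the spread between libraries.

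Members and lists were chosen with earlier results of these data known. Named of each list are, per contrast, up to 3 genes with the highest and the lowest log2 fold change among called genes of at least 5 CPM, and any cargo mRNA; some results under this rule are not reported here. Replicate numbers come from the labels. Deviations of same-numbered libraries correlated for all 6 pairs of groups (r from 0.274 to 0.54), so the numbers were taken to pair the libraries, and a fit with the replicate number as a block was run beside the main one. It lowered the common dispersion from 0.0132 to 0.00459. Results were also recomputed with DESeq2 1.42.0, the likelihood ratio test, other scalings, filters and thresholds, the 4 compared libraries alone, counts without the 37 mitochondrial genes, and leaving out each library. Alternative scalings of the list counts and marker sums were added after seeing the data. Promoters, miRNA sequence and overlaps come from RefSeq (GRCr8), with 9 of the 10 genes matched to promoters. Transcript lengths were not used here, so levels of the 9 genes are not compared with each other. The order and the sums of marker levels also reflect transcript length. Reads of near-identical copies and of genes that share a symbol cannot be separated.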

Additional observations from a re-analysis of the deposited data

How the results depend on the processing

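The log2 fold changes and calls of the 9 genes were recomputed under the alternatives, and the gene lists, markers and family shares only under some of them. For PTX, 0 of the 9 genes passed under all of them except the replicate block, where 1 (*Cpeb4*) passed in somata. For processes against somata in control cultures, 5 of 9 became 3 with DESeq2, 9 with library size alone, 3 with upper quartile scaling, 3 with only the 4 compared libraries, 4 without a filter (*Fxr2* lost), 4 with at least 10 reads in every library (*Fmr1* lost), 2 at an adjusted p under 0.01, 0 at an absolute log2 fold change above 1, and 2 to 5 with 1 library left out. In PTX cultures 3 became 9 with library size alone, 5 with the block, 0 at an absolute log2 fold change above 1 and, through *Fmr1*, 4 with the likelihood ratio test, without mitochondrial genes or with the 4 libraries alone, and 2 to 4 with 1 library left out. Library size alone reversed, in control cultures, *Cpeb3* (-1.16), *Cpeb4* (-1.74), *Fmr1* (-1.40), *Fxr1* (-1.76) and *Pum2* (-1.17), and in PTX cultures *Cpeb3* (-1.37), *Cpeb4* (-1.63), *Fmr1* (-1.46), *Fxr1* (-1.64), *Stau1* (-1.64) and *Pum2* (-1.33), as the shift of the median gene makes it do. Upper quartile scaling reversed *Cpeb4* (-0.14) and *Fxr1* (-0.16) in control and *Fxr1* (-0.00034) and *Stau1* (-0.0021) in PTX cultures, and a minimum of 10 reads in every library *Cpeb4* (-0.0048) and *Fxr1* (-0.023) in control cultures. For PTX in somata the near-zero values changed sign for *Cpeb3* (0.0082), *Fmr1* (0.061) and *Stau1* (0.065) with library size alone, for *Fmr1* (0.00056) and *Stau1* (0.0048) without a filter, and for *Fmr1* (0.0018) and *Stau1* (0.0060) with the 4 libraries alone. For PTX in processes *Pum2* changed sign with DESeq2 (0.011), library size alone (0.046), upper quartile scaling (0.0047), no filter (0.0083), at least 10 reads (0.0016) and the 4 libraries alone (0.012). Leaving out 1 library, where the other library of the group is assumed to vary like the remaining groups, changed signs within these ranges. For PTX in somata they were -0.21 to 0.020 (*Cpeb2*), -0.33 to 0.24 (*Cpeb3*), -0.072 to 0.045 (*Fmr1*), -0.019 to 0.093 (*Fxr1*) and -0.060 to 0.041 (*Stau1*), and in processes -0.33 to 0.021 (*Cpeb2*), -0.22 to 0.16 (*Fmr1*) and -0.044 to 0.040 (*Pum2*). Between compartments they were -0.16 to 0.072 (*Cpeb2*), -0.015 to 0.13 (*Cpeb4*), -0.016 to 0.11 (*Fxr1*) and -0.074 to 0.026 (*Stau1*) in control and -0.28 to 0.072 (*Cpeb2*) in PTX cultures. For the interaction they were -0.23 to 0.34 (*Cpeb1*), -0.24 to 0.11 (*Cpeb2*), -0.51 to 0.067 (*Cpeb3*) and -0.22 to 0.17 (*Fmr1*). Other interaction values moved without changing sign, over 0.057 to 0.21 (*Cpeb4*), 0.028 to 0.22 (*Fxr1*), -0.19 to -0.047 (*Fxr2*) and -0.20 to -0.071 (*Pum2*). So did PTX in processes, over 0.073 to 0.27 (*Fxr1*) and 0.083 to 0.18 (*Fxr2*), and *Cpeb3* between compartments of PTX cultures, over 0.29 to 0.61. Among all genes, 513 called for PTX in somata became 972 with the likelihood ratio test, 1141 without a filter, 2001 with the block and 116 to 568 with 1 library left out. In processes 535 became 949, 1129, 1601 and 97 to 481, and 299 with the 4 libraries alone. Between compartments 6823 became 13461 and 7121 became 13496 with library size alone, and for the interaction 0 became 4 with the likelihood ratio test, 4 with DESeq2, 10 without a filter and 15 with the block. Among the 9 genes the block changed only the calls of *Cpeb4* for PTX in somata and of *Cpeb3* and *Fmr1* between compartments in PTX cultures. Except for library size alone, the cause was not tested. The interaction needs all 4 groups, so it has no value with 4 libraries. With 2 libraries per group, the standard errors for PTX were larger in processes than in somata for each of the 9, and the part of read depth in this was not tested.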
